A study of Saccharomyces cerevisiae with 8 samples.

Results

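The 34 genes described here are the MRPL-named proteins of the large subunit of the mitochondrial ribosome of the budding yeast Saccharomyces cerevisiae. They were taken by systematic identifier, 34 of the 7122 features listed in the count table. All 34 are nuclear genes, and all 34 passed the filter on low counts, which kept 5696 features. The mitochondrial ribosome translates the few proteins encoded by mitochondrial DNA, nearly all of which are subunits of the respiratory chain and ATP synthase. Its proteins are made in the cytosol, imported, and assembled on ribosomal RNA transcribed inside the organelle. Yeast that lose the function of this ribosome cannot respire and grow only by fermentation. Many members descend from the bacterial ribosome (family names beginning with u or b), whereas others are mitochondrion-specific (family names beginning with m), and by the family names in the RefSeq annotation the 34 comprised 21 of the first class and 13 of the second.

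RNA was counted in 8 libraries, 2 biological replicates in each of 4 groups. The first group received the metal chelator clioquinol (CQ, an 8-hydroxyquinoline) at 0.8 µM. The second received 10{3,3,1}, labelled the active DHPM-thione, and the third received 11, labelled the inactive DHPM-thione, each at 20 µM. The fourth received the DMSO solvent. Every group was grown to log phase in galactose medium and treated for about 6 h, and every group carried the strain label W303 with pdr1 and pdr3 deleted, so the DMSO controls also lack this pair of regulators of drug-efflux genes. The text on growth disagrees with this, with doses in millimolar and a wild-type strain. The micromolar values and the deletion strain of the sample characteristics are used here, and PDR1 and PDR3 had 0 counts in all 8 libraries. The structures that distinguish the thiones are not given in the labels.

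Library totals ran from 12076141 to 19021672 counts, and the members had between 96 and 3029 counts each in a library. CPM are counts divided by TMM-scaled library totals, so a value is a share of the counted RNA, and a change in the RNA content of each cell cannot be told apart from it. Transcripts of mitochondrial DNA were barely captured: COX1 had 16 to 57 counts per library, and the other 7 protein genes of that genome had 0 to 12. The 21S ribosomal RNA on which these proteins assemble had 98 and 72 counts in the CQ libraries, 107 and 98 with the active thione, 110 and 83 with the inactive thione, and 135 and 48 in DMSO. The DMSO libraries spanned all the others, and these few counts are given as a description only.

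All 34 members carried the core site of the RNA-binding protein Puf3 just downstream of the coding sequence. Puf3 binds messages of nuclear genes for mitochondrial proteins through this site and affects their decay, translation and localisation. The core was searched as TGTANATA on the sense strand in the 200 bases after the stop codon, in the R64 reference of the S288C strain and not in W303. R64 corresponds to the sacCer3 build, and its RefSeq annotation has no untranslated regions, so the window can pass beyond the end of the message. The core was found in 844 of 6002 nuclear protein-coding genes, or 14.1%. The first core began 13 to 136 bases after the stop codon of the members, with a median of 47.5, and 8 members had more than 1 core. Its variable base was A in 15 members, T in 12, C in 6 and G in 1. The sites below are those of the members whose transcripts fell with CQ, in order of p, followed by the sites of MRPL32, a member matured by proteolysis, and of MRPL25 and MRPL27, the members with the highest fold changes with CQ and with the active thione. Capitals mark the core, with 8 bases on either side.
MRPL35 (chrIV:1111713-1111736, plus strand): tagtatccTGTACATAtaaaataa
MRPL31 (chrXI:185228-185251, minus strand): atttcatcTGTATATAgtttaatc
MRPL3 (chrXIII:323057-323080, plus strand): tgccatttTGTAGATAgagaactc
MRPL7 (chrIV:937567-937590, plus strand): attcgtcaTGTAAATAtataaact
MRPL10 (chrXIV:103078-103101, minus strand): ttctcactTGTACATAccttaaga
MRPL44 (chrXIII:720857-720880, minus strand): agcaagccTGTAAATAatatatat
MRPL15 (chrXII:760294-760317, plus strand): aatttatcTGTAAATAgtgatcga
MRPL9 (chrVII:936026-936049, minus strand): tacaatcaTGTACATAcatcaata
MRPL20 (chrXI:599052-599075, minus strand): aacaatcgTGTAAATActactcta
MRPL32 (chrIII:119209-119232, plus strand): cttaagccTGTATATAgaaactta
MRPL25 (chrVII:637011-637034, minus strand): tctaatcaTGTAAATAattttgtg
MRPL27 (chrII:768701-768724, plus strand): aatatgcgTGTAAATActagtttt

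A C at the second base before the core, a feature of the Puf3 consensus, gives a longer form of the site. It was present after 28 of the 34 members (82.4%) and after 4.22% of all coding genes. The core of MRPL3 printed above was the 1 with G at the variable base, and it lacked that C. The same core followed 12 of 12 other large subunit genes, 33 of 33 small subunit genes and 14 of 14 genes for mitochondrial aminoacyl-tRNA synthetases. It followed 4 of 36 nuclear-encoded subunits of oxidative phosphorylation (11.1%) and 3 of 76 cytosolic large subunit genes (3.95%), against 14.1% of all genes. A different core, TATTTAT, read by AU-rich element proteins such as Cth2 of the iron-deficiency response, was found on the sense strand of that window in 4 members (11.8%), in 61.1% of the respiratory genes and in 13.1% of all genes. Upstream of the start codon, CCAAT, bound by the Hap complex of respiratory gene activation, lay on either strand within 250 bases of 9 members (26.5%), of 80.6% of the respiratory genes and of 35.4% of all genes. AATTTT, an element described in promoters of mitoribosomal protein genes of some yeasts, lay there in 12 members (35.3%) against 48.6% of all genes. GATGAG, the core of the PAC element of cytosolic ribosome biogenesis, lay there in 6 members (17.6%) against 17% of all genes. No overlap between these motifs was removed, and a match is a description of letters and not a measured binding site.

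**Figure D1:**
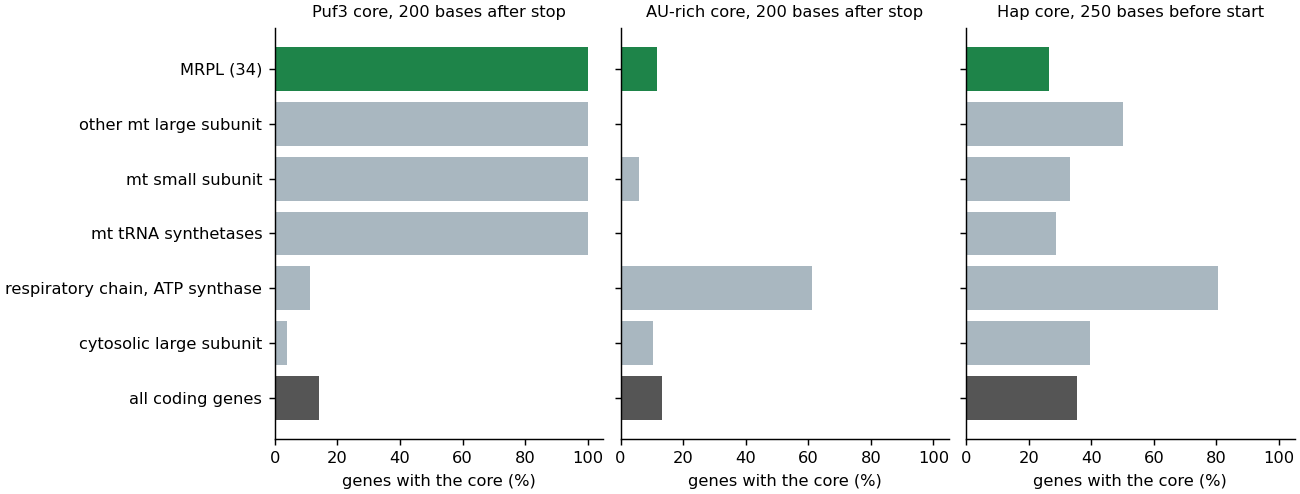
Share of genes (%) that hold a sequence core, for the 34 MRPL genes (green), 5 other gene lists (grey) and all nuclear protein-coding genes (dark). The Puf3 core followed every MRPL gene and 14.1% of all genes, the AU-rich core followed 11.8% of MRPL genes and 61.1% of respiratory genes, and the Hap core preceded 26.5% and 80.6% of them.

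In DMSO the members were transcripts of middling abundance that differed among themselves by 10.6 times per length. Divided by coding length, their CPM per kb had a median of 58.2, which is the 56.8 percentile of tested nuclear coding genes, against a median of 85.1 for the small subunit genes, 401 for the respiratory genes and 1203 for the cytosolic large subunit genes. MRPL51 (mL43) was the most abundant with 199 and 287 CPM per kb in the DMSO libraries, followed by MRPL17 (mL46, central protuberance) with 146 and 176 and MRPL23 (uL13m) with 112 and 139. The ranges of MRPL51 and MRPL17 did not overlap, nor did those of MRPL17 and MRPL23, though both gaps were smaller than the spread between libraries. At the other end stood MRPL28 (mL40, central protuberance) with 21.3 and 24.5 CPM per kb, MRPL1 (uL1m, the mobile stalk by which deacylated tRNA leaves) with 27.2 and 24.3, and MRPL20 (mL58) with 27.6 and 32.8. MRPL28 and MRPL1 overlapped. MRPL51 overlaps the feature YPR099C and MRPL19 overlaps YNL184C, and since the strand setting of the counting is not given in the sources used here, their reads cannot be separated.

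With CQ the members were lower as a group. Their summed level was 986 and 944 CPM in the CQ libraries, against 1352 and 1549 CPM in DMSO. Of the 34, 9 fell and 0 rose at an edgeR adjusted p under 0.05 over all tested features. That is 26.5% of the members, against 8.39% of all features that fell, 4.92% that rose and 13.3% called in either direction. The median log2 fold change was -0.57, against 0.03 over all features, and 33 members lay below 0 (46.8% of features). Unadjusted, 24 members were lower at p under 0.05 (70.6%, against 14.5% of features) and 0 were higher. DESeq2 called 18 members lower and 0 higher, while over all features it called 580 lower and 380 higher, or 16.6% in either direction. Both CQ libraries lay below both DMSO libraries in 26 members (76.5%, against 27.6% of features). In 26 members both CQ libraries also lay below all 6 other libraries, which was not counted over all features. The calls rest on both controls: without DMSO replicate 1 none of the 9 passed (edgeR adjusted p of 0.0583 to 0.218), and without DMSO replicate 2 only MRPL31 did, while all features called numbered 367 and 404 in those fits, against 758 with all libraries. The number of members called also changed when either CQ library was left out, and so did the number of all features called. The median member stayed between -0.67 and -0.44 in all 15 alternatives.

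**Figure D2:**
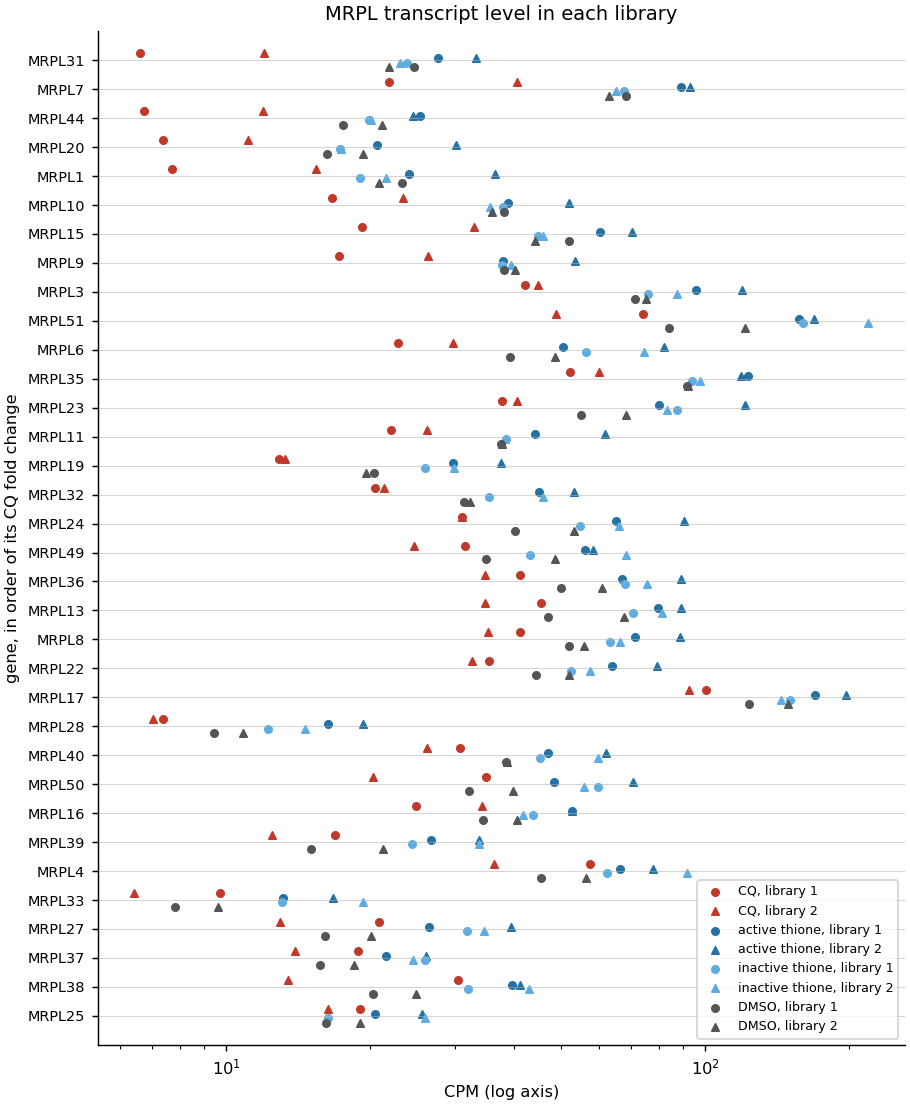
CPM (log axis) of each MRPL gene in the 8 libraries, ordered by CQ fold change with the lowest at the top. Colours mark CQ, active thione, inactive thione and DMSO, circles library 1 and triangles library 2. Red CQ points lie left of the grey DMSO points in 26 genes, and dark blue active thione points lie right of them in 33.

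Among the 5 proteins of the central protuberance, the knob that faces the small subunit, 2 fell (40%, against 8.39% of all features). MRPL35 (YDR322W, mL38, chrIV:1110589-1111692, plus strand, 1 exon) had 52.2 and 60.2 CPM in the CQ libraries, 123 and 119 with the active thione, 93.9 and 97.4 with the inactive thione, and 91.7 and 92.2 in DMSO. The CQ libraries were the lowest 2 of the 8, and the DMSO libraries agreed closely. MRPL35 had the smallest p of the 34, and fell by 0.71 on the log2 scale with CQ (SE 0.13, edgeR adjusted p = 0.00663). MRPL7 (YDR237W, uL5m, chrIV:936615-937493, plus strand, 1 exon) had 21.9 and 40.4 CPM in CQ, 89.3 and 93.1 with the active thione, 67.9 and 65.2 with the inactive thione, and 68.5 and 63.0 in DMSO. Its CQ libraries differed from each other by almost as much as the higher of them differed from DMSO, yet the groups did not overlap. MRPL7 fell by 1.08 on the log2 scale (SE 0.24, edgeR adjusted p = 0.0155). The other 3 did not pass. MRPL17, MRPL28 and MRPL36 (bL31m) had log2 fold changes of -0.49, -0.49 and -0.54, and in each the CQ libraries lay below DMSO.

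The peptidyl transferase side is represented by MRPL9 and MRPL16, whose bacterial relatives reach towards the catalytic centre. MRPL9 (YGR220C, uL3m, chrVII:936074-936883, minus strand, 1 exon) had 17.2 and 26.4 CPM in CQ, against 38.0 and 40.1 CPM in DMSO, without overlap. It fell by 0.84 on the log2 scale (SE 0.23, edgeR adjusted p = 0.0398). MRPL16 (uL16m) had 24.9 and 34.2 CPM in CQ and 34.3 and 40.5 CPM in DMSO, a difference of -0.34 ± 0.18 (SE) that did not pass (edgeR adjusted p = 0.249).

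Around the exit of the peptide tunnel, where new chains meet the inner membrane, 1 of 8 members fell. This share of 12.5% is near the 8.39% of all features that fell. MRPL3 (YMR024W, mL44, chrXIII:321875-323047, plus strand, 1 exon) had 42.1 and 44.8 CPM in CQ, 95.7 and 119 with the active thione, 75.9 and 87.6 with the inactive thione, and 71.3 and 75.5 in DMSO. The CQ libraries were again the lowest pair, with a log2 fold change of -0.76 ± 0.16 (SE; edgeR adjusted p = 0.0105). MRPL32 (bL32m), the protein that the m-AAA protease of yeast must process before the ribosome can assemble, missed the threshold narrowly. It had 20.5 and 21.3 CPM in CQ, against 31.3 and 32.3 CPM in DMSO. The groups did not overlap, and the difference was -0.61 ± 0.18 on the log2 scale (SE), with an edgeR adjusted p of 0.0518 and a DESeq2 adjusted p of 0.0249. MRPL8, MRPL13, MRPL22 and MRPL40, which line this exit region, lay between -0.52 and -0.43 and did not pass. MRPL4 (uL29m) and MRPL27 (mL41) were at -0.12 and -0.09, with overlapping libraries.

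Of the 3 stalk proteins, none passed at the adjusted threshold, while all 3 were lower at an unadjusted p under 0.05, and DESeq2 called all 3. MRPL1 had 7.70 and 15.4 CPM in CQ, against 23.3 and 20.9 CPM in DMSO. The CQ libraries differed from each other by 2-fold, and at -0.94 ± 0.32 (SE) MRPL1 had an edgeR adjusted p of 0.0841. MRPL11 (uL10m) and MRPL19 (uL11m), at the base of the stalk that recruits elongation factors, had log2 fold changes of -0.64 and -0.61, with edgeR adjusted p of 0.0549 and 0.0592.

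The largest fall of all belonged to a mitochondrion-specific protein. MRPL31 (YKL138C, mL60, chrXI:185286-185681, minus strand, 1 exon) had 6.63 and 12 CPM in CQ, 27.6 and 33.3 with the active thione, 23.8 and 23.1 with the inactive thione, and 24.7 and 21.9 in DMSO. The higher CQ library stood well below every other library. MRPL31 was 2.52-fold lower, a log2 fold change of -1.33 ± 0.27 (SE), at an edgeR adjusted p of 0.00912. MRPL44 (YMR225C, mL53, chrXIII:720960-721403, minus strand, 2 coding exons) had 6.73 and 11.9 CPM in CQ, against 17.5 and 21.2 CPM in DMSO, and fell by 1.06 on the log2 scale (SE 0.26, edgeR adjusted p = 0.0258). MRPL15 (YLR312W-A, mL57, chrXII:759480-760241, plus strand, 1 exon) had 19.2 and 32.9 CPM in CQ, against 52.0 and 44.1 CPM in DMSO, and fell by 0.89 (SE 0.23, edgeR adjusted p = 0.0342). In none of MRPL31, MRPL44 and MRPL15 did either CQ library reach the DMSO range. CQ library 1 was below CQ library 2 in every member that passed, and above it in every member whose CQ and DMSO libraries overlapped. Across all 34, CQ library 2 was higher in 16 and lower in 18. Whether this difference between the CQ libraries bears on which members passed was not tested. MRPL20 (YKR085C, chrXI:599094-599681, minus strand, 1 exon) had 7.38 and 11.1 CPM in CQ, against 16.3 and 19.3 CPM in DMSO, and fell by 0.94 (SE 0.26, edgeR adjusted p = 0.0413). MRPL51 had 74.4 and 48.8 CPM in CQ and 84.2 and 121 CPM in DMSO, without overlap, but at -0.73 ± 0.25 (SE) it did not pass (edgeR adjusted p = 0.0841). In MRPL37 (mL54) and MRPL25 (mL59) the groups overlapped. MRPL25 had 19.0 and 16.4 CPM in CQ against 16.2 and 19.1 CPM in DMSO, a log2 fold change of 0.01 with a 95% interval of -0.55 to 0.57, the highest of the 34.

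Of the 9 remaining bacterial-type proteins 1 fell (11.1%, near the 8.39% of all features that fell). MRPL10 (YNL284C, uL15m, chrXIV:103134-104102, minus strand, 1 exon) had 16.6 and 23.4 CPM in CQ, against 38.1 and 35.9 CPM in DMSO, and fell by 0.89 on the log2 scale (SE 0.21, edgeR adjusted p = 0.0200). MRPL6, MRPL23, MRPL24 and MRPL49 lay between -0.73 and -0.56 without passing. MRPL33, MRPL38, MRPL39 and MRPL50 lay between -0.38 and -0.03, and their CQ and DMSO libraries overlapped. MRPL38 (uL14m) varied most, with 30.4 CPM in CQ library 1 and 13.5 CPM in CQ library 2, on either side of its 20.2 and 24.9 CPM in DMSO. By class, 6 of 13 mitochondrion-specific (46.2%) and 3 of 21 bacterial-type proteins (14.3%) fell, against 8.39% of all features. The difference between the classes was not tested. The 9 members with CCAAT upstream had a median log2 fold change of -0.50 with CQ and 2 falls, and the 25 without it had -0.58 and 7 falls.

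**Figure D3:**
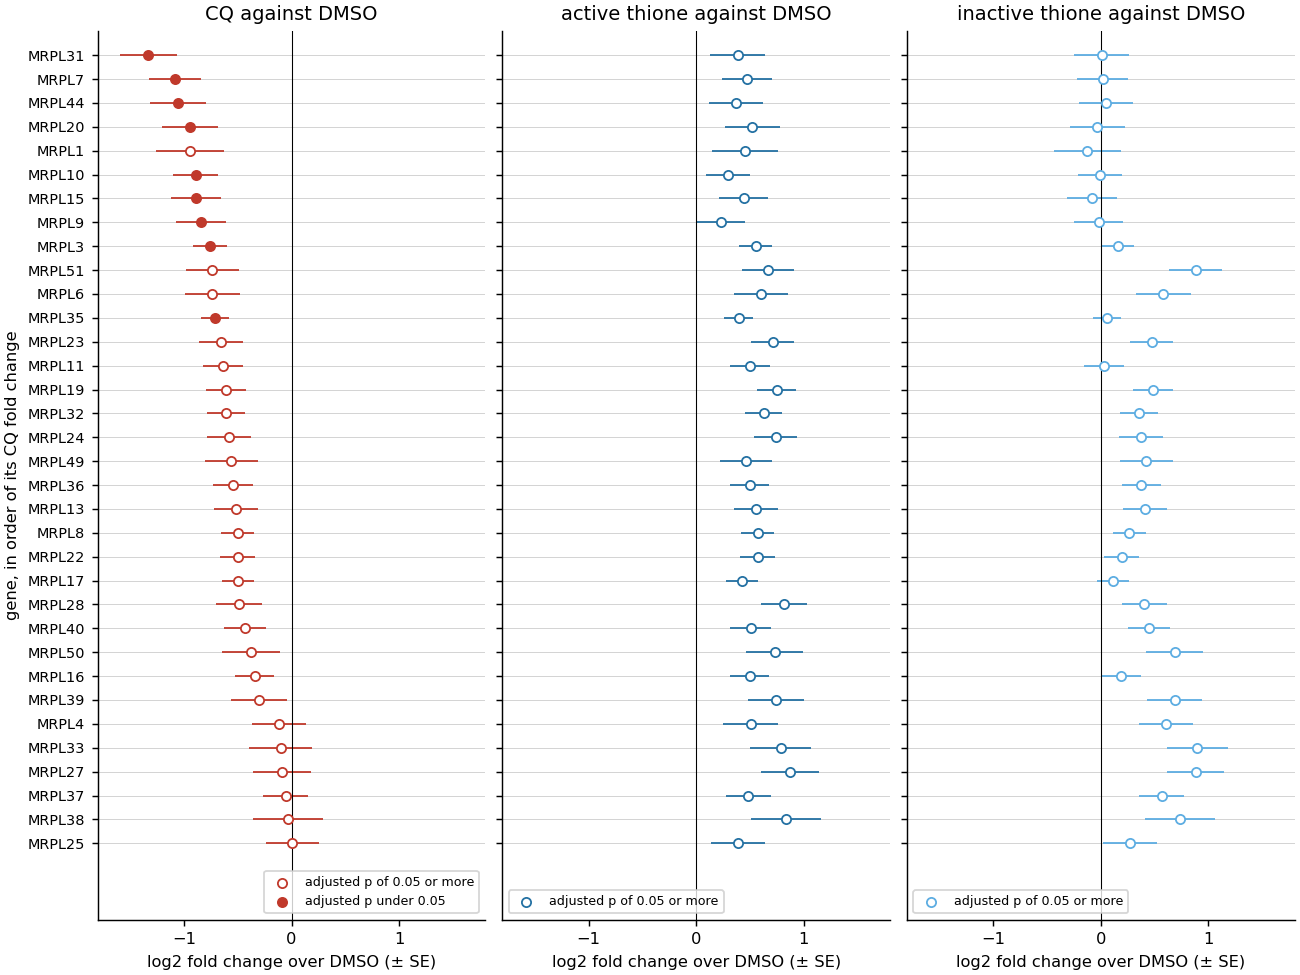
Log2 fold change over DMSO (points, with SE as bars) of each MRPL gene with CQ, active thione and inactive thione, in the order of the CQ values. Filled points passed an edgeR adjusted p of 0.05. With CQ 33 of 34 genes lie left of 0 and 9 passed, with the active thione all 34 lie right of 0 and 0 passed, and with the inactive thione 29 lie right of 0 and 0 passed.

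Part of the rest of the mitochondrial translation apparatus also fell with CQ, and the counts below stand against 8.39% of all features that fell. Of 12 other large subunit genes 3 fell and 0 rose, with a median log2 fold change of -0.55. MRP7 (bL27m, next to the catalytic centre) had 74.7 and 76.4 CPM in CQ against 111 and 130 CPM in DMSO (-0.67 ± 0.14, SE, edgeR adjusted p = 0.0134). MNP1, the relative of bacterial L7/L12, was at -0.97 and YML6 at -0.87, both past the threshold. Of 33 small subunit genes tested of 34, 14 fell and 0 rose (median -0.65), with RSM28 at -1.24, MRPS9 (uS9m) at -0.997, NAM9 at -0.93 and MRP1 at -0.90. MRPS9 had 35.6 and 39.8 CPM in CQ, against 75.9 and 74.5 CPM in DMSO. Among 8 translation factors 4 fell. MEF1, an elongation factor G, had 58.5 and 57.4 CPM in CQ against 150 and 167 CPM in DMSO (-1.46 ± 0.15, SE, edgeR adjusted p = 0.000141). TUF1, the elongation factor Tu, was at -1.21, and MEF2 and IFM1 at -0.83 and -0.66. Of 14 tRNA synthetase genes 5 fell, with ISM1 at -0.80, MSM1 at -0.72, SLM5 at -0.65 and MSK1 at -0.62. Of 8 assembly and rRNA modification genes 1 fell, MAM33 at -1.01, a share of 12.5% that is near that of all features, and the list median was -0.10. Both of the ribosome receptors of the inner membrane, MDM38 and MBA1, fell, at -0.78 and -0.86, while the third gene of that list, the insertase OXA1, did not pass. Without DMSO replicate 1 and without DMSO replicate 2 the calls of YML6, MEF2, IFM1, MSM1, MSK1, SLM5, MDM38 and MBA1 were lost, and without DMSO replicate 2 also those of MRP7 and MSS51. Without CQ replicate 1, MEF2, IFM1, MSM1, MSK1, SLM5 and MBA1 did not pass.

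Of 15 translational activators, which bring single mitochondrial messages to the ribosome, 6 fell (40%, against 8.39% of all features). The strongest were CBP6 and CBP3, which bind together at the tunnel exit and aid cytochrome b synthesis. PET111 and MSS51, which act on messages of cytochrome oxidase subunits, were at -1.23 and -0.85. CBP6 had 5.44 and 3.29 CPM in CQ against 17.3 and 17.5 CPM in DMSO, and CBP3 had 11.7 and 18.4 CPM in CQ against 58.5 and 55.5 CPM in DMSO, with log2 fold changes of -1.98 and -1.92. Among the same 36 oxidative phosphorylation genes 35 fell, with a median of -3.60. CYC1, the cytochrome c gene, had 1.40 and 0.94 CPM in CQ against 111 and 114 CPM in DMSO. HAP4, the limiting subunit of the Hap activator, had 64.3 and 61.6 CPM in CQ against 327 and 286 CPM in DMSO, and fell by 2.28 on the log2 scale (edgeR adjusted p = 1.83e-05). PUF3 had 85.1 and 101 CPM in CQ against 123 and 120 CPM in DMSO, without overlap, and at -0.38 ± 0.16 (SE) it did not pass (edgeR adjusted p = 0.159). None of 76 cytosolic large subunit genes passed (1 lower and 1 higher unadjusted), and their median was -0.10. The genes of the 3 mitochondrial AAA proteases, among them the m-AAA subunits AFG3 and YTA12 that process MRPL32 protein, did not pass either (2 lower unadjusted). Whether the fall of HAP4 or of the respiratory genes bears on the members was not tested.

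**Figure D4:**
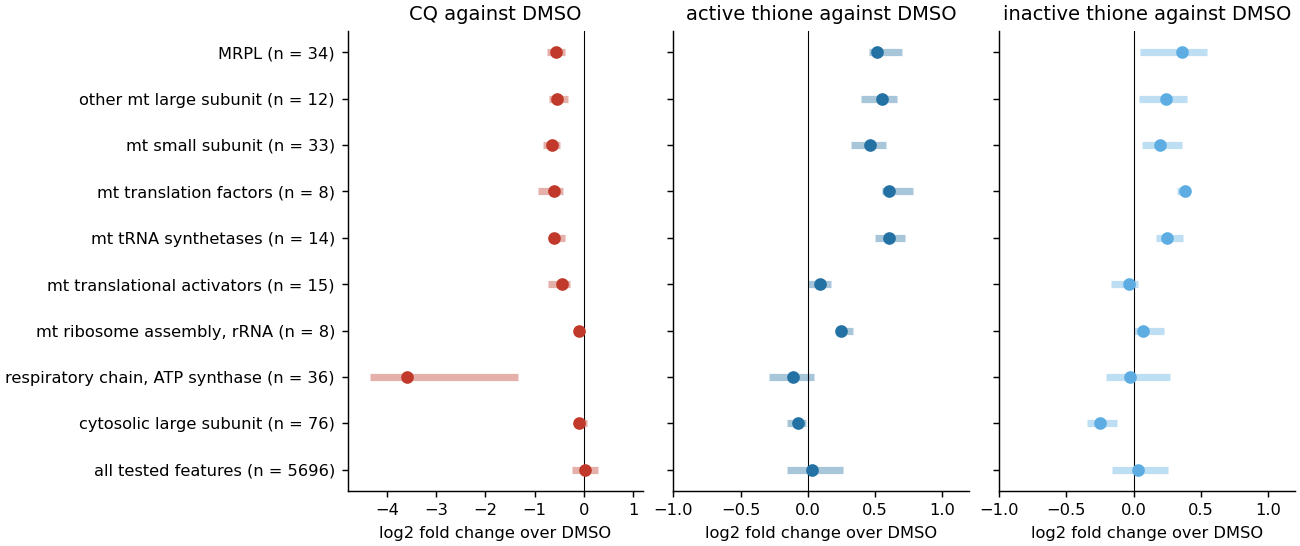
Median log2 fold change over DMSO (points) with the middle 50% of genes (bars) for 9 gene lists and all tested features, with CQ, active thione and inactive thione. The horizontal scale of the CQ panel is wider. The MRPL medians were -0.57, 0.51 and 0.36, and those of the respiratory list were -3.60, -0.11 and -0.03.

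Other genes that carry the Puf3 core had medians near 0 with CQ. The 702 tested genes with the core outside the members and the translation lists had a median log2 fold change of -0.08, and 13.4% of them fell. The 4691 without it had a median of 0.06, and 7.12% fell. With the active thione these medians were 0.15 and 0.01. Of the members, 20 have a divergently transcribed upstream neighbour, 175 to 722 bases away. Of those neighbours 18 were tested, 1 fell with CQ and 0 rose, with a median of -0.02. Over all features 8.39% fell and 4.92% rose with CQ.

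With the active thione the members were higher than in DMSO, but none passed. Their summed level was 1903 and 2313 CPM in the active thione libraries, against 1352 and 1549 CPM in DMSO, the same DMSO libraries that CQ was set against. All 34 log2 fold changes were above 0, against 54.2% of all features, with a median of 0.51 against 0.03. Both active thione libraries were above both DMSO libraries in 33 members (97.1%, against 29.8% of features), MRPL9 being the exception. At an adjusted p under 0.05 edgeR called 0 members, against 1.37% of all features. Unadjusted, 23 members were higher at p under 0.05 (67.6%, against 10.5% of features). DESeq2 called 1 member, MRPL19, against 3.1% of features, and its reads cannot be separated from those of the overlapping YNL184C. The largest difference was in MRPL27, which had 26.5 and 39.4 CPM with the active thione, against 16.1 and 20.1 CPM in DMSO. That is 0.87 ± 0.27 on the log2 scale (SE, 95% interval 0.27 to 1.47) with an edgeR adjusted p of 0.185. The smallest was in MRPL9, with 37.8 and 53.4 CPM against 38.0 and 40.1 CPM, a log2 fold change of 0.23 ± 0.23 (SE). Replicates differed in level for the members together: active thione library 2 exceeded library 1 in 31 of 34, by a median of 0.31 on the log2 scale, and DMSO library 2 exceeded library 1 in 28, by 0.23, while the medians over all coding genes were at most 0.01. The median member stayed between 0.40 and 0.71 in all 15 alternatives.

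By role the median log2 fold changes with the active thione were 0.47 for the central protuberance, 0.36 for the peptidyl transferase side, 0.56 for the tunnel exit, 0.50 for the stalks, 0.73 for the other bacterial-type and 0.44 for the other mitochondrion-specific proteins. MRPL28 of the central protuberance had 16.3 and 19.3 CPM with the active thione, against 9.45 and 10.9 CPM in DMSO, and MRPL19 of the stalk base had 29.7 and 37.4 CPM against 20.4 and 19.6 CPM. Neither gene's groups overlapped, and neither passed (edgeR adjusted p = 0.121 and 0.102). MRPL32 had 45.0 and 53.2 CPM with the active thione, against 31.3 and 32.3 CPM in DMSO (edgeR adjusted p = 0.149). Among the lists of mitochondrial translation only 2 translation factor genes passed, both higher. MRF1, the release factor, had 69.3 and 75.4 CPM with the active thione, against 39.9 and 43.2 CPM in DMSO, with a log2 fold change of 0.80 ± 0.15 (SE; edgeR adjusted p = 0.0345). MEF1 had 270 and 283 CPM against 150 and 167 CPM, also at 0.80 (edgeR adjusted p = 0.0345). Both calls were lost without either active thione library, without either DMSO library and without inactive thione replicate 2, and that of MRF1 also without inactive thione replicate 1. The other large subunit genes had a median of 0.55, the small subunit genes 0.46 and the synthetase genes 0.60, with 0 called in each (7 of 12, 20 of 33 and 11 of 14 higher unadjusted). The respiratory genes had a median of -0.11 and the cytosolic large subunit genes -0.07. HAP4 had 378 and 292 CPM with the active thione against 327 and 286 CPM in DMSO, overlapping.

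With the inactive thione the summed level was 1712 and 1949 CPM, again against 1352 and 1549 CPM in DMSO. Inactive thione library 2 exceeded library 1 in 25 of 34 members. The median of library 2 over library 1 was 0.15 on the log2 scale, against 0.01 over all coding genes. The median member was at 0.36, against 0.03 over all features, and 29 of 34 were above 0, against 53.9% of features. The other large subunit genes had a median of 0.24 (9 of 12 above 0), the small subunit genes 0.20 (27 of 33) and the synthetase genes 0.25 (14 of 14). The cytosolic large subunit genes were at -0.25 (9 of 76) and the respiratory genes at -0.03 (17 of 36). None of the 34 members passed at an adjusted p under 0.05 by edgeR, against 0.158% of features called in either direction. Unadjusted, 12 members were higher (35.3%, against 8.74% of features). DESeq2 called 1 member, MRPL51, against 1.52% of features, and its reads cannot be separated from those of the overlapping YPR099C. Libraries did not overlap in 23 members, all higher (67.6%, against 32.2% of features). MRPL33 (uL30m) differed most, with 13.1 and 19.3 CPM with the inactive thione against 7.83 and 9.61 CPM in DMSO, a log2 fold change of 0.90 ± 0.29 (SE; edgeR adjusted p = 0.344). MRPL51 had 160 and 219 CPM with the inactive thione, against 84.2 and 121 CPM in DMSO, at 0.88 ± 0.25 (SE; edgeR adjusted p = 0.303). The lowest was MRPL1, with 19.0 and 21.5 CPM against 23.3 and 20.9 CPM, a log2 fold change of -0.12 with a 95% interval of -0.82 to 0.57. Coding length moved with these values. The 17 members shorter than the median of 616.5 bases had a median log2 fold change of 0.47, and the 17 longer ones had 0.16, and across the 34 genes Spearman's rho with coding length was -0.51, against -0.18 over 5520 coding genes. With the active thione the medians of shorter and longer members were 0.67 and 0.50, and with CQ they were -0.54 and -0.64. Genes are not independent replicates and share the libraries, and the part of length in these values was not tested.

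The active and inactive thione form the 1 matched pair of compounds, at the same dose and time. Their summed member levels were 1903 and 2313 CPM with the active thione, against 1712 and 1949 CPM with the inactive thione, and the ranges overlapped. Between them edgeR called 0 members, against 0.123% of features, and DESeq2 called 0, against 0.45% of features. Unadjusted, 5 members were higher with the active thione at p under 0.05 (14.7%, against 2.26% of features), and 0 were lower (1.44% of features). These 5, named after their values were seen, were MRPL3, MRPL11, MRPL15, MRPL22 and MRPL35, and MRPL35 had 123 and 119 CPM with the active thione against 93.9 and 97.4 CPM with the inactive thione. The median difference was 0.27 on the log2 scale, with 29 of 34 above 0, against 0.01 and 52.1% over all features. Related lists moved likewise: 0.28 for the other large subunit genes (11 of 12 above 0), 0.28 for the small subunit genes (30 of 33) and 0.32 for the synthetase genes (14 of 14). The cytosolic large subunit genes were at 0.15 (65 of 76) and the respiratory genes at -0.12 (10 of 36). Here the 17 shorter members had a median of 0.12 and the 17 longer ones 0.32, with all 5 of those members among the longer, and Spearman's rho with coding length was 0.44 over the 34, against -0.04 over all coding genes. In 15 members the active libraries lay above both inactive libraries (44.1%, against 15.4% of features), and in 0 members below (15.3% of features). The highest difference was in MRPL1, with 24 and 36.4 CPM against 19.0 and 21.5 CPM, at 0.58 (95% interval -0.12 to 1.27). The lowest was in MRPL51, with 157 and 169 CPM against 160 and 219 CPM, at -0.22 (95% interval -0.76 to 0.33). The 95% intervals of 29 members included 0, and those of 3 reached past a 2-fold difference. A p that misses the threshold does not show that the compounds act alike on these genes. CQ was given at another dose than the thiones, so no difference between CQ and a thione was tested, and the values stand side by side only. As a share of TMM-scaled library totals, the 34 members together were at 0.0965% with CQ, 0.211% with the active thione, 0.183% with the inactive thione and 0.145% in DMSO.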

How the data were processed

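The authors deposited 1 table of raw counts per annotated feature. Beside each count stands the deposited normalized signal, which equalled the count divided by a constant for the library (checked on features with more than 200 counts) and was not used further. The submitters' processing notes name DESeq, HTSeq, TopHat and TopHat2 2.1.1 and the build sacCer3. What each tool did, the gene annotation and the strandedness of counting are not given in the sources used. Another 4 lines of the table are empty.

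Testing used edgeR 4.0.16 (R 4.3.3) and its quasi-likelihood F test, two-sided, with TMM scaling, filterByExpr and 1 term per group over all 8 libraries, and Benjamini-Hochberg adjustment over 5696 features with a threshold of 0.05. Standard errors belong to log2 fold changes, and intervals cover 95%. Libraries of a group differed by more than sampling noise (chi-square per degree of freedom 23.2 to 104). DESeq2 1.42.0, other scalings and filters and each library left out were alternatives. Names, coordinates and sequences come from RefSeq R64, which names 6045 of the features.

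The members, gene lists, motifs and roles were chosen with earlier results of these data known. Named genes are every member past the threshold, the highest and lowest member of each comparison, the 3 most and 3 least abundant per coding length, MRPL32, and outside the members up to 4 called genes of smallest p per list, with PUF3 and HAP4. Other members are named with their values by role. MRPL sequences in R64 were not compared with W303.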

Additional observations from a re-analysis of the deposited data

How the results depend on the processing

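With 2 libraries a group, the calls are the least stable part of these results. The members called with CQ were 9, and they numbered 12 with DESeq2 size factors, 6 with library totals, 14 without the low-count filter, 18 with the DESeq2 test, 3 with the compared groups only (MRPL3, MRPL31 and MRPL35), 15 with RefSeq features only and 0 to 14 with each library left out. For the active thione they were 0, and 1 with the DESeq2 test (MRPL19) and with the compared groups only (MRPL38). For the inactive thione they were 0, and 1 with the DESeq2 test (MRPL51). For the thiones against each other no alternative called a member. All features called with CQ were 758, and 764 with DESeq2 size factors, 732 with library totals and 785 without the low-count filter. They were 960 with the DESeq2 test (16.6%), 550 with the compared groups only (9.68%) and 778 with RefSeq features only (14.1%). All features called with CQ numbered 367 to 1419 with each library left out. For the active thione they were 183 with the DESeq2 test, 133 with the compared groups only and 4 to 108 with each library left out. For the inactive thione they were 16 with library totals, 84 with the DESeq2 test and 1 to 18 with each library left out, and for the thiones against each other 26 with the DESeq2 test and 3 to 10. The cause was not tested.

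Directions were steadier. Over the 15 alternatives the median member lay between -0.67 and -0.44 with CQ, 0.40 and 0.71 with the active thione, 0.20 and 0.48 with the inactive thione, and 0.08 and 0.36 between the thiones. Signs of single members moved more. Members above 0 numbered 0 to 6 with CQ, 33 to 34 with the active thione, 26 to 31 with the inactive thione and 21 to 33 between the thiones. Signs were followed gene by gene for the highest and lowest member of each comparison. With CQ they were also followed for the called members, the most and least abundant members and MRPL32. Among these, signs turned in 3 values, none of which passed. MRPL25 with CQ was -0.0057 with DESeq2 size factors, -0.029 without the low-count filter, -0.0052 with the DESeq2 test, -0.013 with the compared groups only, -0.034 with RefSeq features only, and -0.11 to 0.13 with each library left out. With each library left out, MRPL9 with the active thione was -0.046 to 0.45, and MRPL51 between the thiones was -0.43 to 0.017.

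Replicate numbers are shared by the groups in the labels, and nothing there says what a number marks. Deviations of same-numbered libraries from their group means had correlations of 0.33, 0.39 and 0.43 among the thione and DMSO groups, and of 0.21, -0.09 and -0.15 between CQ and the active thione, the inactive thione and DMSO. With 2 numbers a group, and not all above 0.1, the libraries were not treated as pairs. A replicate block gave 17 members called with CQ, 1 with the active thione (MRPL24) and 0 in the other comparisons. All features called with the block were 952 with CQ, against 758 without it. They were 174, 54 and 13 for the active thione, for the inactive thione and between the thiones, against 78, 9 and 7 without it.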
